A study of Homo sapiens with 6 samples.

Results

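The miR-200 family and miR-203a were examined in small RNA libraries of A549, a long-established epithelial cell line derived from a human lung adenocarcinoma. The members were every row of the deposited miRNA table named miR-200a, miR-200b, miR-200c or miR-141 (any arm) or miR-429, together with miR-203a-3p, which gave 8 of the 787 mature miRNAs listed. One group had received the plasmid pcDNA4 carrying SMARCA4 (also called BRG1), delivered with a lipid transfection reagent, and the other had received pcDNA4 with no insert. Each group held 3 libraries taken 48 h after transfection, which the submitters describe as independent biological replicates. SMARCA4 is an ATPase that drives chromatin remodelling by SWI/SNF, and the labels call its delivery a restoration. Both groups were transiently transfected pools of the same line, and SMARCA4 itself was not measured in these libraries, so its level could not be set beside the labels.

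The miR-200 family comes from a pair of hairpin clusters on separate chromosomes and restrains the epithelial to mesenchymal transition, in which epithelial cells lose their junctions and gain motility. Its best known targets are ZEB1 and ZEB2, repressors of E-cadherin that also repress transcription of both miR-200 clusters, so that each side holds the other down. The family falls into seed groups, the seed (bases 2 to 8 of the mature strand) being the stretch that does most of the pairing with target mRNAs. miR-203a is a separate epithelial miRNA with an unrelated seed, abundant in skin, where in mouse it represses the stem cell factor p63.

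The mature sequences are shown because the seed sets which targets a member can pair with, and the levels are also given summed by seed. They are from RefSeq (GRCh38.p14), 5′ to 3′, with the seed in capitals; miR-141-5p, the eighth member, is named only. The first pair shares the seed AACACUG, the next 3 share AAUACUG, and the last 2 have seeds that no other member shown here has.

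hsa-miR-141-3p: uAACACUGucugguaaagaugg
hsa-miR-200a-3p: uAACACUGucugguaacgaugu
hsa-miR-200b-3p: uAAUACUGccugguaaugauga
hsa-miR-200c-3p: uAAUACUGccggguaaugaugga
hsa-miR-429: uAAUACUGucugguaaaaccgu
hsa-miR-200a-5p: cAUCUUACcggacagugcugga
hsa-miR-203a-3p: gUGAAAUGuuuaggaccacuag

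The seed of miR-141-3p differs from that of miR-200b-3p by a single substitution, C4U, counted from the 5′ end with the base of miR-141-3p first. Some pairs are nearly alike over their full length. miR-141-3p and miR-200a-3p are identical at 20 of 22 bases (A17C and G22U), and miR-200b-3p and miR-200c-3p are identical at 20 of the 22 bases compared (U11G and A22G, with the base of miR-200b-3p first). miR-429 stands further from its seed mates, at 16 of 22 bases identical to miR-200b-3p and 15 of 22 to miR-200c-3p. The counting rule for reads that could match several of these miRNAs is not stated, and the separate values of such pairs depend on it.

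The hairpins lie in 3 places in GRCh38, all on the plus strand (GENCODE 29). MIR200C (chromosome 12, 6963699 to 6963766) and MIR141 (6964097 to 6964191) are 330 bases apart and both intronic to MIR200CHG, a lincRNA gene. MIR200B (chromosome 1, 1167104 to 1167198), MIR200A (1167863 to 1167952) and MIR429 (1169005 to 1169087) are separated by 664 and 1052 bases and overlap no other annotated gene. MIR203A (chromosome 14, 104117405 to 104117514) overlaps MIR203B, a hairpin gene of the minus strand. The chromosome 12 hairpins are printed with the mature 3p arm in capitals, since this cluster carries 1 hairpin of each seed and their 3p arms gave very different values.

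MIR200C: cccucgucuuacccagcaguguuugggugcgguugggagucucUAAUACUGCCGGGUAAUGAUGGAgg
MIR141: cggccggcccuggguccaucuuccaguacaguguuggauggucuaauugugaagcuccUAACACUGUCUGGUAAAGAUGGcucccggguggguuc

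The table holds normalized counts, in which a read was worth between 0.422 and 2.61 units depending on the library. Read totals were 701885, 7274329 and 767810 in SMARCA4 replicates 1, 2 and 3 and ranged from 881370 to 1079944 in the empty vector libraries. SMARCA4 replicate 2 therefore had 8.33 times the mean of the other 5 libraries, and without it 17 miRNAs rose and 24 fell by limma over the whole table, against 6 and 3 with all libraries. All 8 members averaged above 1 normalized count in both groups and entered the test, limma on log2(value + 1) over 637 miRNAs. Of the 8, 2 rose with SMARCA4 (adjusted p under 0.05), against 0.942% of all miRNAs tested. None fell by limma, where the share over all tested miRNAs was 0.471%. edgeR and DESeq2 on the recovered reads also gave 2 rises and 0 falls among the members. Over all 637 miRNAs, edgeR gave 5 rises and 3 falls, and DESeq2 gave 23 rises and 21 falls. DESeq2 gave no adjusted p for miR-141-5p, miR-200a-5p and miR-200c-3p. At an unadjusted p under 0.05, 3 members were higher and 1 was lower by limma, against 11.3% of tested miRNAs in each direction. The libraries of the groups did not overlap for 3 members that were higher and 1 that was lower, against 15.9% and 15.2% of tested miRNAs. The median log2 fold change was 0.74 over the members and −0.05 over all tested miRNAs.

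Among the AACACUG members, miR-141-3p rose with SMARCA4. It had 196, 147 and 203 normalized counts in SMARCA4 replicates 1, 2 and 3, against 35.8, 19.0 and 39.2 in empty vector replicates 1, 2 and 3. These values rested on 75, 349 and 86 reads in the SMARCA4 libraries and on 19, 10 and 24 reads in the empty vector libraries. In bulk RNA, a change in all cells and a change in some of them cannot be told apart, nor can fewer cells of a type and less RNA per cell. Every SMARCA4 library was well above every empty vector library, and the deepest SMARCA4 library had the lowest value of its group. Mean levels were 182 ± 30.3 in SMARCA4 cells and 31.4 ± 10.8 in empty vector cells (SD, n = 3 each). The log2 fold change was 2.55 with an SE of 0.39 (limma adjusted p = 0.0124), and 2.70 without SMARCA4 replicate 2 (limma adjusted p = 0.00949). The call was lost without SMARCA4 replicate 1, SMARCA4 replicate 3, empty vector replicate 1 or empty vector replicate 3 (limma adjusted p = 0.0806, 0.0853, 0.0748 and 0.0547) and with libraries rescaled to the same total (limma adjusted p = 0.0519).

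miR-200a-3p, which shares that seed but comes from the chromosome 1 cluster, did not pass. It had 57.5, 59.6 and 44.9 normalized counts in SMARCA4 replicates 1, 2 and 3, against 13.2, 17.1 and 44.1 in empty vector replicates 1, 2 and 3. The groups did not overlap, but empty vector replicate 3 was almost level with SMARCA4 replicate 3. The log2 fold change was 1.27 with an SE of 0.50 (limma adjusted p = 0.178), and it was 1.77 without empty vector replicate 3 (limma adjusted p = 0.161).

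Of the 3 AAUACUG members, 0 passed by limma, edgeR or DESeq2, and their log2 fold changes had both signs. DESeq2 gave no adjusted p for miR-200c-3p. miR-200b-3p, the most abundant member in empty vector cells, had 186, 140 and 243 normalized counts in SMARCA4 replicates 1, 2 and 3, against 458, 285 and 523 in empty vector replicates 1, 2 and 3. The groups did not overlap, with the highest SMARCA4 library below the lowest empty vector library. Mean levels were 189.6 ± 51.8 in SMARCA4 cells and 422 ± 123 in empty vector cells (SD, n = 3 each). The log2 fold change was −1.14 with an SE of 0.35 (unadjusted p = 0.00999, limma adjusted p = 0.109). It passed under none of 16 other settings, where the adjusted p ranged from 0.0521 to 0.281 (limma, edgeR and DESeq2). miR-429, from the same chromosome 1 cluster, had 57.5, 35.1 and 75.6 normalized counts in SMARCA4 replicates 1, 2 and 3, against 37.7, 19.0 and 52.3 in empty vector replicates 1, 2 and 3. Its groups overlapped, and the log2 fold change was 0.66 with an SE of 0.49 (limma adjusted p = 0.449). miR-200c-3p, in many epithelial tissues an abundant member of the family, was close to the limit of detection in this line. It had 2, 7 and 6 reads in SMARCA4 replicates 1, 2 and 3 and 1, 5 and 8 reads in empty vector replicates 1, 2 and 3. At this depth no difference was detectable (limma adjusted p = 0.970, log2 fold change −0.06, SE 0.78), and the sign turned without SMARCA4 replicate 1, SMARCA4 replicate 2, empty vector replicate 2 or empty vector replicate 3 (log2 fold changes of 0.04, 0.37, 0.18 and 0.39).

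**Figure D1:**
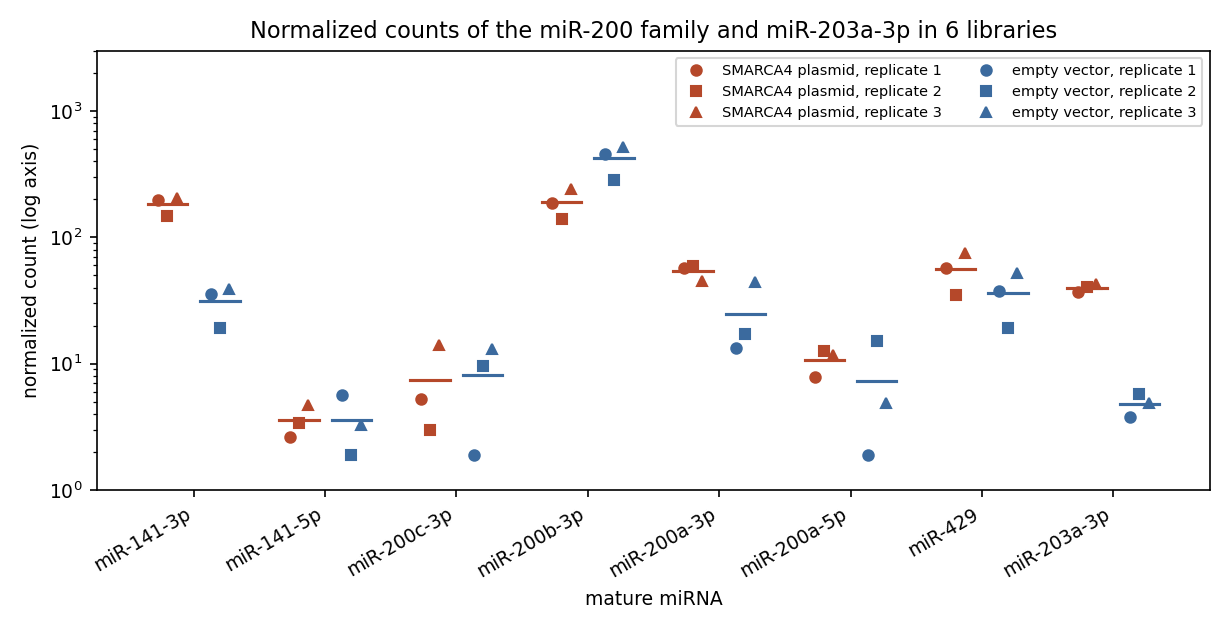
Normalized counts of each member on a log axis, with SMARCA4 libraries in red at the left of each pair and empty vector libraries in blue at the right; points are single libraries and bars are group means (n = 3). miR-141-3p and miR-203a-3p are higher in every SMARCA4 library than in any empty vector library, while miR-200b-3p is lower and miR-141-5p and miR-200c-3p overlap.

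The 5p arms were scarce in both groups. miR-141-5p, the other strand of the hairpin that gives miR-141-3p, had 1, 8 and 2 reads in SMARCA4 replicates 1, 2 and 3 and 3, 1 and 2 reads in empty vector replicates 1, 2 and 3. Its mean was 3.57 ± 1.07 normalized counts in SMARCA4 cells and 3.61 ± 1.90 in empty vector cells (SD, n = 3 each). The log2 fold change was 0.05 with an SE of 0.60 (limma adjusted p = 0.972). miR-200a-5p had 7.84, 12.7 and 11.8 normalized counts in SMARCA4 replicates 1, 2 and 3, against 1.89, 15.2 and 4.91 in empty vector replicates 1, 2 and 3. Its groups overlapped (limma adjusted p = 0.492, log2 fold change 0.83, SE 0.69), and the log2 fold change ran from 0.24 without empty vector replicate 1 to 1.49 without empty vector replicate 2. A miRNA with no reads in a library could still have had an expected count of up to 3 reads. In normalized counts that limit was 7.84, 1.27 and 7.08 in SMARCA4 replicates 1, 2 and 3. In empty vector replicates 1, 2 and 3 it was 5.66, 5.71 and 4.91. All values of miR-141-5p other than the 8 reads in SMARCA4 replicate 2, and some of miR-200c-3p and miR-200a-5p, lay at or under those limits. So did every empty vector value of miR-203a-3p, which rested on 2, 3 and 3 reads in replicates 1, 2 and 3. The limits cover counting error only, because amplified reads are not independent molecules.

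miR-203a-3p rose with SMARCA4 as well. It had 36.6, 40.1 and 42.5 normalized counts in SMARCA4 replicates 1, 2 and 3, against 3.77, 5.71 and 4.91 in empty vector replicates 1, 2 and 3. The SMARCA4 libraries lay close together, although their read numbers differed (14, 95 and 18), and all were far above the empty vector libraries. The level in empty vector cells rested on 2, 3 and 3 reads. The ratio of pooled read rates was 8.34, with an exact 95% interval of 4.11 to 19.7 for counting error. The log2 fold change was 2.83 with an SE of 0.44 (limma adjusted p = 0.0124), and 2.82 without SMARCA4 replicate 2 (limma adjusted p = 0.0186). With a pseudocount of 5 it was 2.19 (limma adjusted p = 0.0119), more than 1.5 times smaller as a fold. The call was lost without SMARCA4 replicate 1, SMARCA4 replicate 3, empty vector replicate 1 or empty vector replicate 3 (limma adjusted p = 0.0806, 0.0853, 0.0941 and 0.0635). miR-203b-3p, from the overlapping hairpin on the opposite strand, had 3 reads over the SMARCA4 libraries and 1 read over the empty vector libraries and was not tested.

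**Figure D2:**
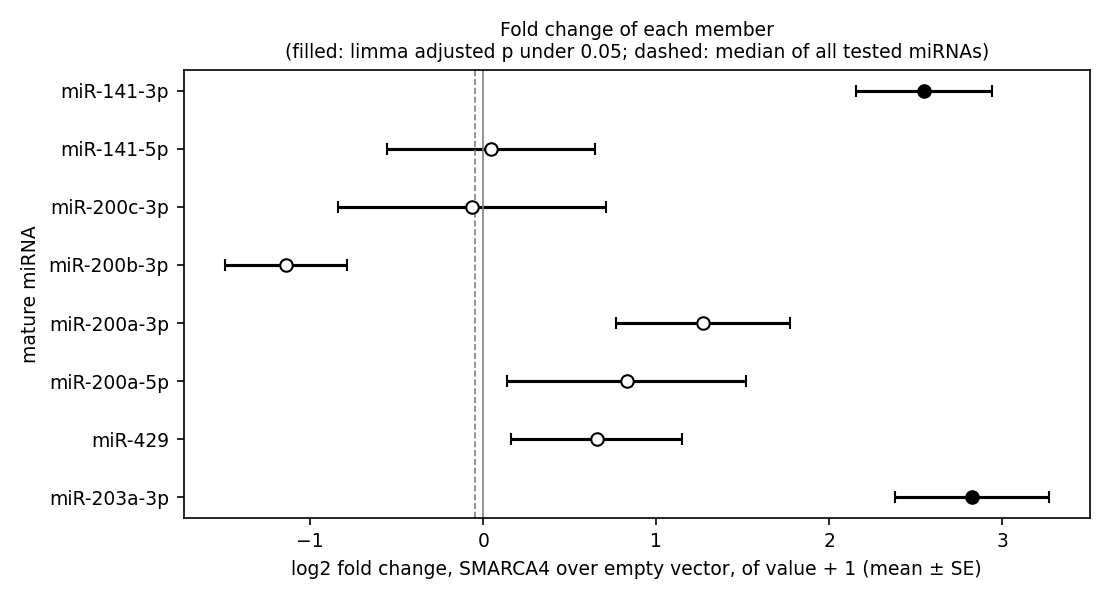
Log2 fold change of each member, SMARCA4 over empty vector, on the log2(value + 1) scale; points are limma estimates over 3 libraries a group, bars are ± SE, and filled points passed an adjusted p of 0.05. The filled points are miR-141-3p at 2.55 and miR-203a-3p at 2.83, miR-200b-3p lies at −1.14, and the dashed line marks the median of all tested miRNAs at −0.05.

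The summed level of the family's 2 main seed groups was similar in both conditions, while its make-up differed. The 5 members with either seed together had 502, 385 and 581 normalized counts in SMARCA4 replicates 1, 2 and 3, against 547, 350 and 672 in empty vector replicates 1, 2 and 3, and the groups overlapped. The AACACUG pair summed to 236 ± 25.4 normalized counts in SMARCA4 cells and 56.2 ± 24.4 in empty vector cells, and the AAUACUG members to 253 ± 77.6 in SMARCA4 cells and 467 ± 140 in empty vector cells (SD, n = 3 each). The first sum did not overlap between groups and the second did.

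As a share of reads, which does not depend on how libraries were scaled, the AACACUG seed made up 50.5%, 53.8% and 42.7% of the 5 members' reads in SMARCA4 replicates 1, 2 and 3, against 8.97%, 10.3% and 12.4% in empty vector replicates 1, 2 and 3. The exact 95% binomial intervals ran from 36.4% to 57.8% over the SMARCA4 libraries and from 5.94% to 16.0% over the empty vector libraries, and they cover counting error only. Group means were 49.0 ± 5.71% in SMARCA4 cells and 10.6 ± 1.73% in empty vector cells (SD, n = 3 each). miR-141-3p alone took 37.4 ± 2.18% in SMARCA4 cells and 5.94 ± 0.565% in empty vector cells, and miR-200b-3p took 38.4 ± 3.03% in SMARCA4 cells and 81.1 ± 2.99% in empty vector cells (SD, n = 3 each). miR-429 and miR-200a-3p also held larger mean shares with SMARCA4, at 11.2 ± 1.96% and 11.6 ± 3.88%, against 6.71 ± 1.19% and 4.62 ± 2.09% in empty vector cells, and miR-200c-3p stayed at or under 2.72% in every library. These shares describe reads and not molecules, since adapter ligation differs between miRNAs, and they were not tested because they sum over members whose changes were already known.

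**Figure D3:**
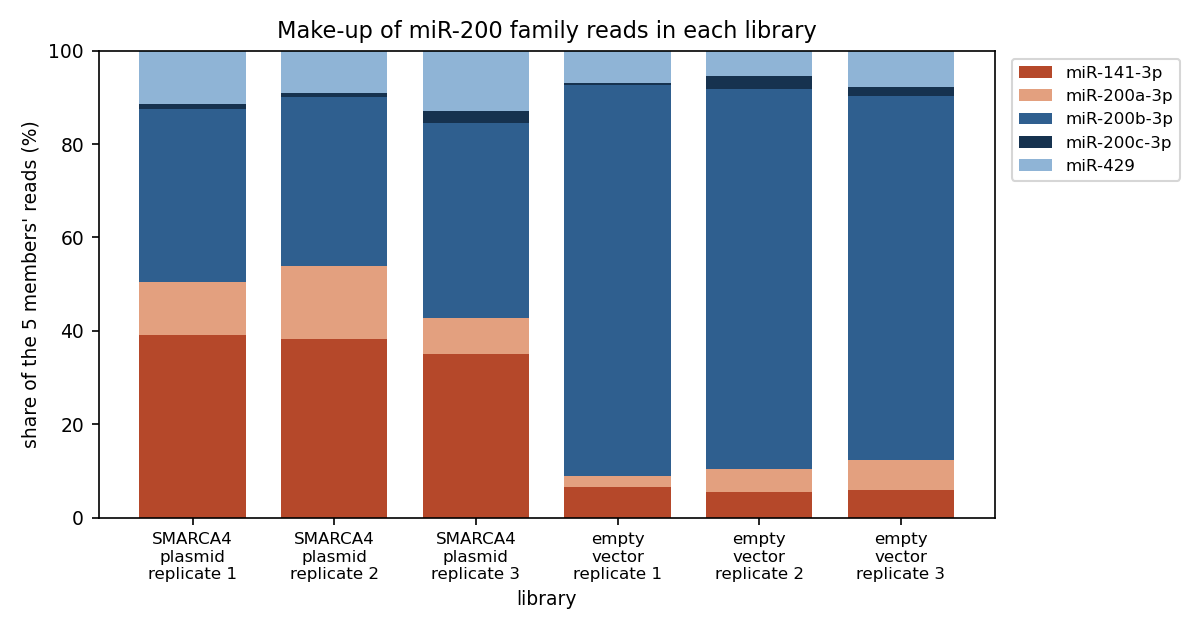
Share of reads (%) of the 5 members that carry either main seed, in each SMARCA4 library (left) and each empty vector library (right); red shades are the AACACUG members and blue shades the AAUACUG members. The red part reaches 42.7% to 53.8% in SMARCA4 libraries and 8.97% to 12.4% in empty vector libraries.

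Ratios within a library set miR-141-3p beside the other arm of its hairpin, its cluster neighbour and miR-200b-3p of the chromosome 1 cluster. The 3p arm of miR-141 made up 98.7%, 97.8% and 97.7% of the reads of that hairpin in SMARCA4 replicates 1, 2 and 3, against 86.4%, 90.9% and 92.3% in empty vector replicates 1, 2 and 3. Intervals were wide in the empty vector libraries, which had 22, 11 and 26 reads for both arms together, and they overlapped those of the SMARCA4 libraries. The log2 ratio of miR-141-3p to miR-141-5p was 5.34 ± 0.38 in SMARCA4 cells and 2.83 ± 0.39 in empty vector cells (SD, n = 3 each), a difference of 2.51. Over all 155 hairpin names with both arms tested, the arm ratio did not overlap between groups for 32.3%, and was higher with SMARCA4 in that sense for 12.9%.

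The log2 ratio of miR-141-3p to miR-200c-3p, its cluster neighbour, was 4.65 ± 0.79 in SMARCA4 cells and 2.04 ± 1.45 in empty vector cells, a difference of 2.61 (SD, n = 3 each). miR-200c-3p had at most 8 reads in a library, and the difference ranged from 2.06 to 3.43 as single libraries were left out. The ratio of miR-141-3p to miR-200b-3p rested on more reads and had the tightest replicates of the 3. It was 0.08, 0.08 and −0.26 in SMARCA4 replicates 1, 2 and 3, against −3.64, −3.84 and −3.70 in empty vector replicates 1, 2 and 3. The difference of 3.69 log2 units corresponds to a 12.9-fold higher ratio with SMARCA4, and it stayed between 3.64 and 3.80 with any single library left out. On the log2(value + 1) scale no ratio of the 3 overlapped between groups. Only the arm ratio has a share over all hairpin names beside it, and none is given for ratios between hairpins. miR-141-3p itself did not overlap, as was so for 15.9% of tested miRNAs in the same direction. For miR-141-3p to miR-200c-3p the nearest libraries were 3.75 in SMARCA4 replicate 3 and 3.67 in empty vector replicate 1, and the groups overlapped with a pseudocount of 0.5 (exact permutation p = 0.2). Exact permutation tests (two-sided) gave p = 0.1 for each, also after adjustment over the 3, which is the smallest value possible with 3 against 3 libraries. All 3 ratios have miR-141-3p as numerator, which rose in these same libraries, so these tests are not separate support for its rise.

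The chromosome 1 hairpins, which neighbour each other closely, also differed among themselves. The log2 ratio of miR-429 to miR-200b-3p was −1.77 ± 0.17 in SMARCA4 cells and −3.57 ± 0.27 in empty vector cells (SD, n = 3 each). For miR-200a-3p to miR-200b-3p it was −1.77 ± 0.60 in SMARCA4 cells and −4.18 ± 0.76 in empty vector cells (SD, n = 3 each). Both ratios were higher in every SMARCA4 library than in any empty vector library; they were chosen after their values were seen and carry no test, and no share over other pairs is given. Between the AACACUG members the ratio of miR-141-3p to miR-200a-3p overlapped, at 1.73 ± 0.43 in SMARCA4 cells and 0.45 ± 0.82 in empty vector cells (SD, n = 3 each).

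**Figure D4:**
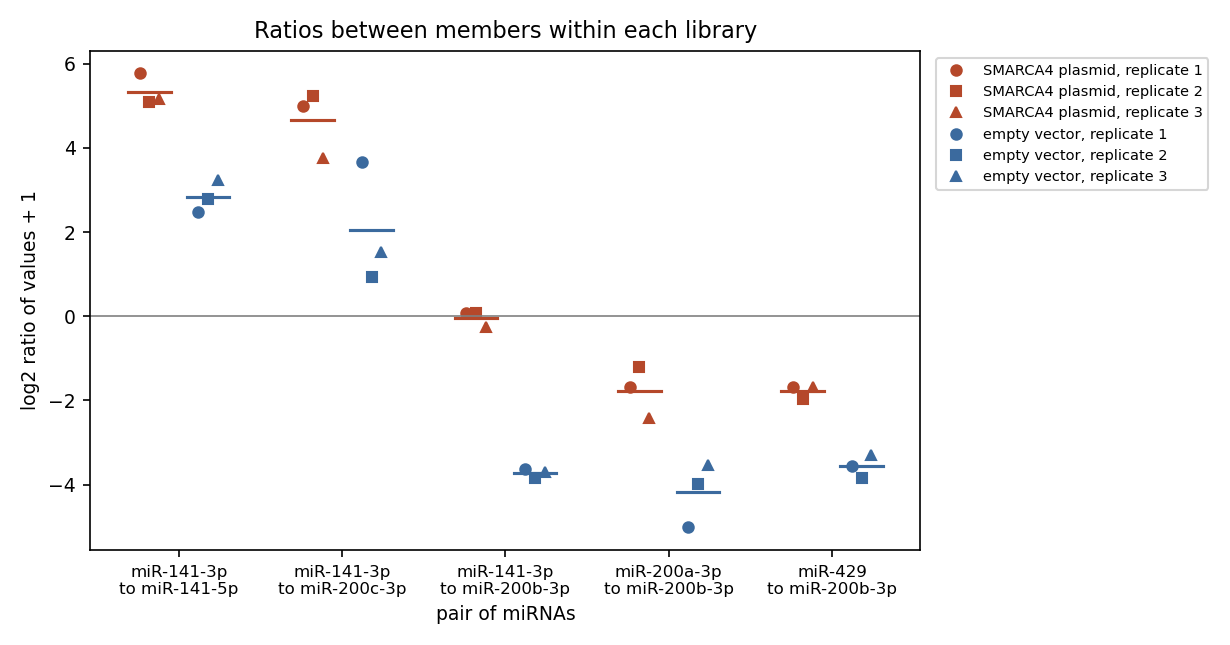
Log2 ratio of 5 pairs of members within each library (values + 1), with SMARCA4 libraries in red at the left of each pair and empty vector libraries in blue at the right; points are libraries and bars are means of 3. On this scale the groups do not overlap for any pair, though for miR-141-3p to miR-200c-3p they do with a pseudocount of 0.5, and miR-141-3p to miR-200b-3p has a mean of −0.03 in SMARCA4 libraries and −3.73 in empty vector libraries.

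The order of abundance within the family differed between conditions. In SMARCA4 cells miR-200b-3p and miR-141-3p ranked 162 and 170 of the 637 tested miRNAs by mean normalized count, and their levels, 189.6 ± 51.8 and 182 ± 30.3, differed by less than their spread. miR-429, miR-200a-3p and miR-203a-3p followed at ranks 259, 264 and 286. The levels of miR-429 overlapped those of miR-200a-3p and those of miR-203a-3p, while miR-200a-3p was above miR-203a-3p in every SMARCA4 library. In empty vector cells miR-200b-3p ranked 113 and stood above all other members in every library, and miR-429, miR-141-3p and miR-200a-3p followed at 289, 307 and 325 with overlapping levels. miR-203a-3p ranked 470 there, among the scarce members, and no member was among the 100 most abundant miRNAs of either group.

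Among the other 416 candidates with a mean of at least 10 normalized counts, the miRNAs whose log2 levels followed miR-141-3p most closely over the 6 libraries were miR-944 (r = 0.984), miR-147b (r = 0.971) and miR-1247-5p (r = 0.967). For miR-203a-3p they were miR-6840-5p (r = 0.999), let-7b-5p (r = 0.993) and miR-130a-3p (r = 0.976), and for miR-200b-3p miR-17-5p (r = 0.995), miR-148b-5p (r = 0.989) and miR-221-5p (r = 0.986). The 6 libraries form 2 groups, and the values of a library share its depth, so these correlations are given as a description. None of these 9 passed the test themselves, with limma adjusted p from 0.0656 to 0.232. miR-147b, for example, had 69.6 ± 3.18 normalized counts in SMARCA4 cells and 24.6 ± 9.36 in empty vector cells (SD, n = 3 each; limma adjusted p = 0.0830).

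Among other miRNAs tied to the epithelial state, none passed the main test. Of 15 names (miR-205, miR-375, miR-192, miR-194, miR-215, the miR-183 cluster and the miR-34 family) 12 were tested, and 0 rose and 0 fell by limma, where 2 were higher and 1 was lower at an unadjusted p under 0.05 (11.3% of all tested miRNAs in each direction). edgeR also called 0, and DESeq2 called 1, miR-34c-5p, as a fall (161 ± 11.4 normalized counts in SMARCA4 cells and 340.2 ± 36.6 in empty vector cells, SD, n = 3 each; limma adjusted p = 0.0828). The other arm, miR-34c-3p, was not called and went the other way, with no overlap between groups. It was at 15.7 ± 4.70 in SMARCA4 cells and 4.88 ± 2.37 in empty vector cells (SD, n = 3 each, limma adjusted p = 0.134). These levels rested on 47 reads over the SMARCA4 libraries and 8 over the empty vector libraries. The groups did not overlap for 4 that were higher and 1 that was lower, against 15.9% and 15.2% of all tested miRNAs, and the median log2 fold change was 0.33, against −0.05 over all. The most abundant were miR-192-5p, a p53-responsive miRNA of gut and kidney epithelium, at 271083 ± 29083 in SMARCA4 cells and 201519 ± 23653 in empty vector cells, and miR-182-5p, of the miR-183 cluster of sensory epithelia, at 92897 ± 22712 in SMARCA4 cells and 59621 ± 6726 in empty vector cells (SD, n = 3 each; limma adjusted p = 0.381 and 0.230).

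Of 16 names of mesenchymal or transition-promoting miRNAs, 11 were tested, and 1 fell by limma while 0 rose, against 0.471% and 0.942% of all tested miRNAs. At an unadjusted p under 0.05, 3 were higher and 1 was lower, against 11.3% in each direction. The groups did not overlap for 4 that were higher and 1 that was lower, against 15.9% and 15.2%. The miRNA that fell was miR-222-3p, which the study's title names, at 7575 ± 791 normalized counts in SMARCA4 cells and 22393 ± 1893 in empty vector cells (SD, n = 3 each; limma adjusted p = 0.0124). The median log2 fold change of the list was 0.60, with 8 of 11 positive. The most abundant, miR-21-5p, an oncogenic miRNA of many tumours, was at 323492 ± 124236 in SMARCA4 cells and 387595 ± 90924 in empty vector cells (SD, n = 3 each; limma adjusted p = 0.645). miR-10b-5p, which promotes invasion in breast cancer models, was at 26564 ± 6429 in SMARCA4 cells and 11347 ± 2503 in empty vector cells, with no overlap (SD, n = 3 each; limma adjusted p = 0.0656), and was called by DESeq2 as a rise, together with miR-221-3p. miR-221-3p, opposite in direction to miR-222-3p, was at 15593 ± 7115 in SMARCA4 cells and 7055 ± 973 in empty vector cells, with no overlap (SD, n = 3 each, limma adjusted p = 0.110). miR-199a-5p, miR-199b-5p, miR-214-3p and miR-145-5p, typical of fibroblasts and smooth muscle, averaged under 1 normalized count over all libraries. miR-143-3p, a fibroblast marker on the same list, did not. It was at 71.5 ± 46.0 in SMARCA4 cells and 38.8 ± 14.7 in empty vector cells, with overlap (SD, n = 3 each, limma adjusted p = 0.449).

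Apart from miR-203a-3p, markers of cells that an A549 culture should lack were low or overlapped between groups. miR-203a-3p, given above as a member, was also listed as a marker of keratinocytes or squamous epithelium. Its groups did not overlap, with means of 39.7 normalized counts in SMARCA4 cells and 4.79 in empty vector cells. Of 6 blood miRNAs 2 had a row, and their sum was between 31.7 and 88.9 normalized counts in SMARCA4 libraries and between 5.71 and 47.1 in empty vector libraries. The fibroblast markers miR-143-3p and miR-145-5p summed to between 31.4 and 122 in SMARCA4 libraries and to between 22.6 and 51.3 in empty vector libraries, and both arms of the endothelial miR-126 to between 1200 and 1401 in SMARCA4 libraries and to between 746 and 1490 in empty vector libraries. The muscle miRNAs miR-1-3p and miR-133a-3p were at 0 in every library, and the other listed markers were not analysed here. The part of these sums in the members' differences was not tested.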

How the data were processed

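Small RNA was sequenced from 6 A549 cultures, 3 a group, with a TruSeq small RNA kit after extraction with a mirVana kit, per the labels' protocols. Per the submitters' processing notes, bcl2fastq 2.18.0.12 was used and the build was GRCh38. The sources used here name no trimmer, aligner or counter, nor the treatment of multiply matching reads. The deposited values are a normalized signal, a read count times 1 factor per library, and the table's name speaks of TMM. All values (100%) were whole multiples of the library's smallest step within 1e-06 reads, so reads were recovered as deposited value over step. Depths stand in the report.

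The main test was limma 3.58.1 (R 4.3.3) on log2(value + 1) with a mean-variance trend and group as the only term, over 637 miRNAs with a mean of at least 1. Benjamini-Hochberg adjustment covered all of them, with a threshold of 0.05. Fold changes on this scale understate changes of scarce miRNAs. edgeR 4.0.16 (quasi-likelihood) and DESeq2 1.42.0 (212 adjusted p-values undefined) ran on recovered reads as alternatives, beside other pseudocounts, filters and scalings, a replicate block and single libraries left out. The fits were tested on simulated data. Ratios used exact permutation tests (scipy 1.17.1). Every pair of libraries differed by more than sampling noise, with a lowest chi-square per degree of freedom of 6.61.

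The members and lists were chosen with earlier results of these data known. Named miRNAs were all members, any other row of the MIR203A and MIR203B hairpins, from each list the 2 with the highest mean and those past the threshold, and the 3 most like miR-141-3p, miR-203a-3p and miR-200b-3p; others were chosen after their values were seen. Sequences come from RefSeq, where 7 of 8 members matched.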

Additional observations from a re-analysis of the deposited data

How the results depend on the processing

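The directions of miR-141-3p, miR-203a-3p, miR-200b-3p, miR-200a-3p, miR-200a-5p and miR-429, of the 3 ratios and of both seed sums held under every alternative run. With single libraries left out the log2 fold change ranged from 2.24 to 2.74 for miR-141-3p, from 2.69 to 2.94 for miR-203a-3p, from −0.25 to 0.35 for miR-141-5p and from −0.76 to 0.39 for miR-200c-3p, and the calls over all miRNAs from 0 to 41 (0 to 17 rose and 0 to 24 fell), against 9 with all libraries. The count was highest without SMARCA4 replicate 2, and 0 by limma without SMARCA4 replicate 1 or empty vector replicate 1, where 119 and 103 miRNAs had an unadjusted p under 0.05. With libraries rescaled to the same total, miR-141-3p was at 2.23 (limma adjusted p = 0.0519) and miR-141-5p at −0.20, and 4 miRNAs rose and 8 fell, against 6 and 3; this scaling moved the median of all miRNAs to −0.31. miR-141-5p was at −0.0452 by edgeR and −0.0345 by DESeq2, which called 44 miRNAs (23 rose, 21 fell). The cause of these changes was not tested. Same-numbered libraries had correlations of deviations from 0.01 to 0.09, and 2 of 3 SMARCA4 libraries correlated best with their own number. These values do not settle whether replicate numbers pair the libraries, since counting error in scarce miRNAs lowers such correlations. With the replicate block 13 miRNAs were called (8 rose and 5 fell), miR-141-3p had an adjusted p of 0.0227, miR-203a-3p of 0.0473 and miR-200b-3p of 0.0561 (limma), and the exact p of each ratio was 0.25. The 8 reads of miR-203a-3p and 14 of miR-200c-3p over the empty vector libraries limit what their sizes can show.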
